A study of Mus musculus with 24 samples.

Results

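This account compares chromatin accessibility of the progenitor class MPP2 with that of long-term hematopoietic stem cells (HSC), using 12 of the 24 ATAC-seq libraries of a mouse transplantation study. The libraries were chosen by their labels alone: 6 MPP2 libraries were set against 6 HSC libraries, and each set of 6 held 3 libraries from WT recipients and 3 from IκB– recipients. All donor cells were WT and carried CD45.1, the recipients were young CD45.2 mice of either type, and donor cells were sorted from femur and tibia marrow 13 to 15 weeks after transplantation, 500 to 1500 per sample. Both subsets were sorted as lineage-negative, Sca1+, cKit-high and Flt3-negative; per the labels' protocols MPP2 carried CD150 and CD48, whereas the HSC gate is written as lacking both. Long-term HSC are usually sorted as CD150+ and CD48-, so the gate as written does not match the label; which population was sorted cannot be told from the sources used here, and HSC below means the libraries so labelled. The genetic change behind IκB– is not described in the sources used here, and nothing in them says that replicates came from separate animals, so the p-values measure the spread between these samples, which may in part be technical.

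HSC sit at the top of blood formation and divide rarely. The multipotent progenitors downstream of them are divided by surface proteins into classes with different leanings, and MPP2 is the class known for a leaning to megakaryocytes and erythroid cells, while MPP3 leans to myeloid and MPP4 to lymphoid cells. ATAC-seq uses a transposase that inserts into open DNA, so the number of inserts counted in a region rises with its accessibility, which marks active promoters and enhancers and is not itself a measure of expression.

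MPP2 and HSC differed at few regions. Of 9896 nuclear regions tested, 3 were called, all more accessible in MPP2 (0.0303% of regions tested; edgeR quasi-likelihood test, Benjamini-Hochberg adjusted p under 0.05), and 0 were called lower (0%). These lay inside Crem, Ccdc93 and Csmd3. At an unadjusted p under 0.05 there were 382 higher (3.86%) and 367 lower regions (3.71%), 749 in all against 495 that a uniform distribution of p would give. The median log2 fold change over all regions tested was -0.02 and the median size of a change, in either direction, was 0.20.

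**Figure D1:**
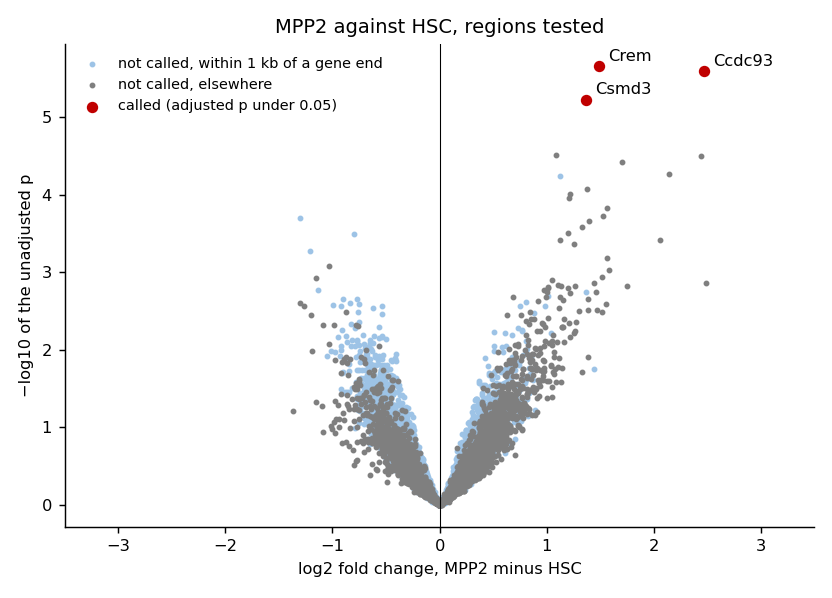
Each point is 1 of the 9896 regions tested, with the log2 fold change of MPP2 over HSC on the horizontal axis and the −log10 of the unadjusted p of the edgeR quasi-likelihood test on the vertical axis. The 3 called regions lie at the top right, and the regions with the smallest p on the left are mostly within 1 kb of a gene end.

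The libraries differed in depth. Nuclear counts ran from 107053 to 239364 in HSC and from 131644 to 673485 in MPP2, a difference of 0.80 on the log2 scale (exact two-sided permutation test within recipient type, p = 0.085, n = 6 and 6; the smallest p it allows is 0.005). Without WT MPP2 replicate 3 it was 0.985 (exact permutation test, p = 0.035) and without IκB– MPP2 replicate 2 it was 1.12 (exact permutation test, p = 0.025), so the difference passed 0.05 in 2 of 12 such runs. Counts in regions at most 1 kb from where a protein-coding gene begins or stops (its gene ends) made up a share of 67.5% ± 3.95 in HSC and 67.0% ± 1.03 in MPP2 (SD, n = 6 each; exact permutation test, p = 0.835), and the highest value, 73.8%, belonged to replicate 3 of HSC from IκB– recipients. That library stood apart on the first principal component (25.6% of the variance), and replicate 2 of the same group stood apart on the second (13.9%). Over 5 shares tested, the share on chromosome X had the smallest p: 2.09% ± 0.148 in HSC and 2.29% ± 0.144 in MPP2 (SD, n = 6 each; exact permutation test, p = 0.02, adjusted p = 0.1). The part of depth and of these libraries in single results was not tested beyond the values given with them.

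**Figure D2:**
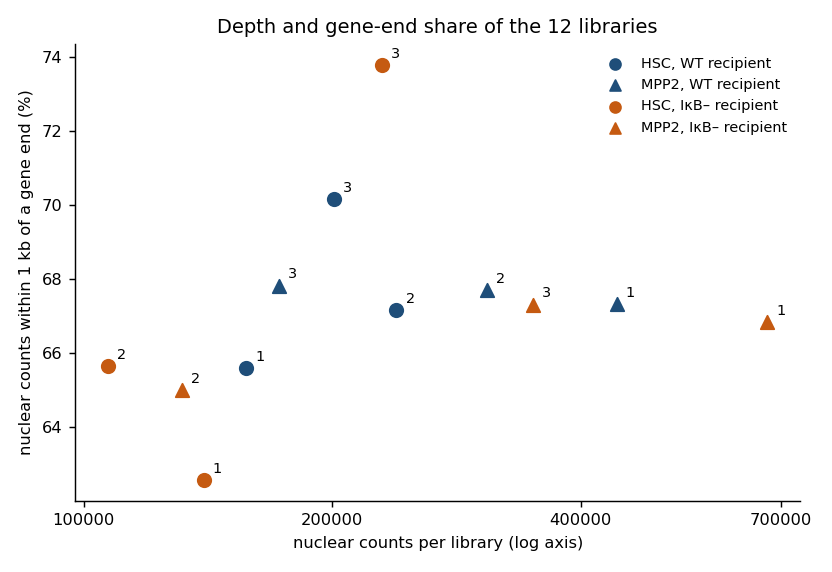
Nuclear counts per library on a log axis against the share of them within 1 kb of a gene end, for 6 HSC libraries (circles) and 6 MPP2 libraries (triangles), coloured by recipient type and numbered by replicate. MPP2 shares lie between 65.0% and 67.8%, and HSC shares spread from 62.6% to 73.8%.

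Crem encodes a cAMP-responsive regulator of transcription. The called region lies in its gene body at chr18:3270613-3271041 (build mm10, as for all positions here). In CPM (counts scaled to 1000000 per library, with TMM factors over all 24 libraries) the HSC libraries read 64.4, 61.9 and 29.8 in WT recipients and 58.7, 85.0 and 27.5 in IκB– recipients. The MPP2 libraries read 171, 154 and 105 in WT recipients and 138, 187 and 134 in IκB– recipients, so every MPP2 library lay above every HSC library. The log2 fold change was 1.49 ± 0.25 (SE; edgeR adjusted p = 0.0128), with 1.49 within either recipient type. MPP3 and MPP4 lay at 43.8 ± 21.8 (SD, n = 5) and 63.1 ± 25.2 CPM (SD, n = 6), and MPP2 exceeded their mean by 1.55 ± 0.19 on the log2 scale (edgeR adjusted p = 4.49e-07).

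Ccdc93 encodes a subunit of a complex that recycles membrane proteins from endosomes. The region in its gene body, chr1:121478326-121478658, was almost closed in HSC: the 6 libraries held 3, 0, 1, 3, 1 and 3 counts. In MPP2 it held 30, 18, 7, 45, 8 and 22 counts, and in CPM the lowest MPP2 library, at 40.7, lay above the highest HSC library. The pooled counts, 130 against 11, gave a ratio of 6.05 per unit depth (95% exact interval 3.27 to 12.4, counting error only), and the fitted log2 fold change was 2.47 ± 0.42 (SE; edgeR adjusted p = 0.0128). Here HSC was the subset that stood apart: MPP3 had 64.2 ± 21.96 (SD, n = 5) and MPP4 77.2 ± 29.7 CPM (SD, n = 6), HSC lay below their mean by a log2 difference of -2.72 (edgeR adjusted p = 1.21e-05), and MPP2 differed from it by -0.19 ± 0.21 (adjusted p = 0.65).

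Csmd3 encodes a large membrane protein studied mainly in the nervous system, and the region lies in its gene body at chr15:48583815-48584254. The nearest gene end is 208304 bp away, so the region had no gene assigned within 50 kb and is named by the gene that spans it. The HSC libraries read 77.2, 86.7 and 59.5 CPM in WT recipients and 66.1, 28.3 and 18.3 CPM in IκB– recipients. All MPP2 libraries were higher, between 132 and 161 CPM. The log2 fold change was 1.37 ± 0.25 (SE; edgeR adjusted p = 0.0197). It was 1.01 in WT and 1.93 in IκB– recipients, a difference with an unadjusted p of 0.0822 in the edgeR interaction test (adjusted p = 1), and the low HSC values in IκB– recipients belong to the replicates 2 and 3 that stood apart. With those libraries left out the log2 fold change was 1.01 and the region was not called.

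The 3 calls were made again in some fits and lost in others. Leaving out each library in turn, Crem and Ccdc93 were called in 9 of 12 fits and Csmd3 in 6 of 12, with adjusted p up to 0.0853; the count of calls was 0 without WT HSC replicate 3, WT MPP2 replicate 1 or WT MPP2 replicate 2, and 9 without IκB– HSC replicate 1. With the log2 depth of each library as a covariate, 0 regions were called (adjusted p = 0.188 for Crem and 0.218 for Ccdc93 and Csmd3), although the fold changes stayed at 1.60, 2.41 and 1.40.

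**Figure D3:**
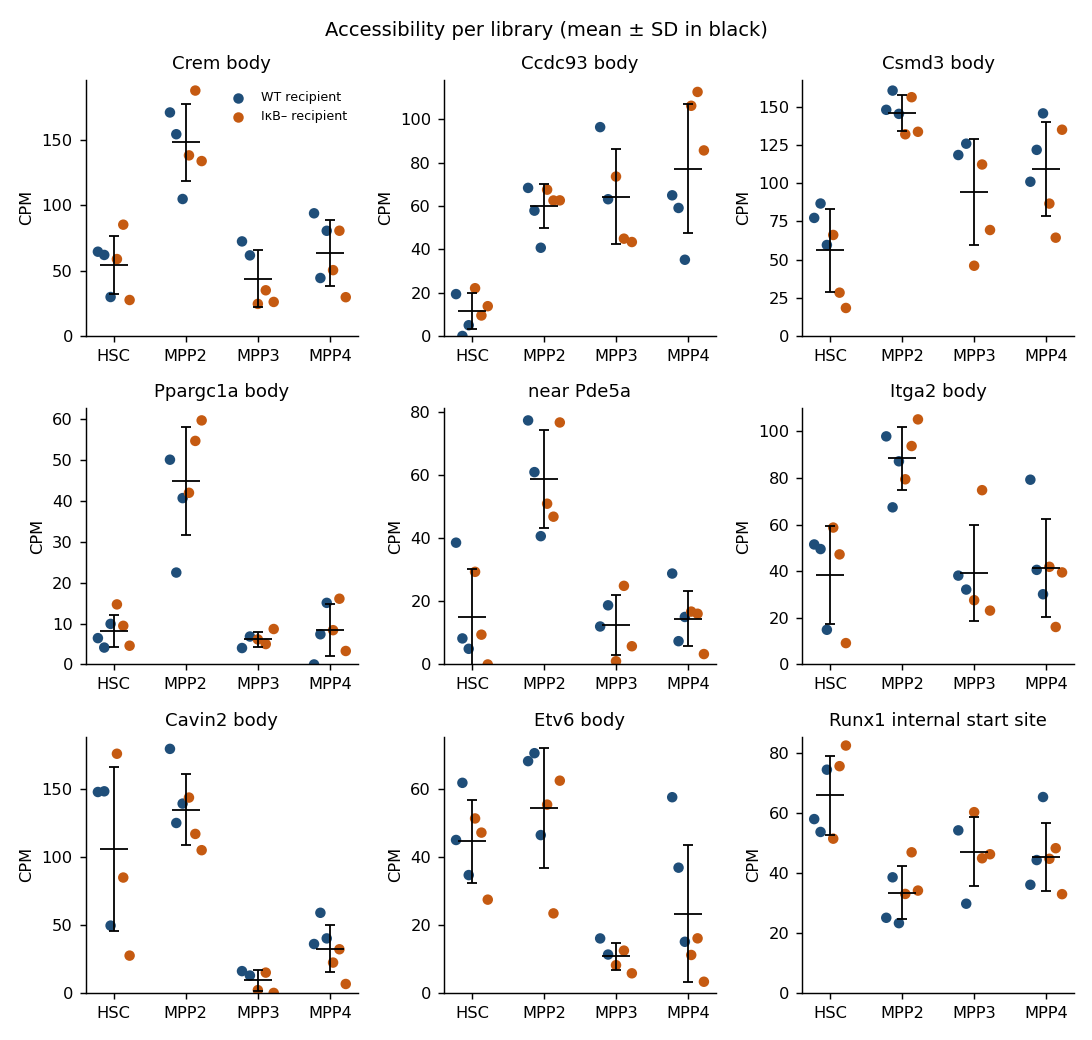
CPM per library in 9 regions for HSC, MPP2, MPP3 and MPP4, coloured by recipient type, with mean ± SD in black (bars cut at 0; the WT MPP3 libraries 2 and 3, which agreed within sampling noise, are averaged into 1 point). In Crem, Ppargc1a and Pde5a every MPP2 point lies above all points of the other subsets, in Itga2 every MPP2 point lies above HSC but overlaps MPP3 and MPP4, in Ccdc93 HSC lies apart, and in Cavin2 and Etv6 HSC and MPP2 lie together above MPP3.

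Among the 12 regions with the smallest p on the higher side, the 9 beyond the calls had adjusted p from 0.0622 to 0.121 and log2 fold changes from 1.09 to 2.44; none passed the threshold in this fit. All 9 passed it when each library's gene-end share was a covariate, 5 passed without IκB– HSC replicate 1, and 0 passed with log2 depth as a covariate. Together with the calls, 9 of these 12 had no overlap between the groups, where 34 of all regions tested (0.344%) had every MPP2 library above every HSC library and 7 (0.0707%) the reverse; the 12 were chosen by p, so nothing is read from that count. Of the 12, 1 overlapped a start site and 7 lay in gene bodies, where 52.9% and 20.8% of all regions tested did.

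Ppargc1a encodes PGC-1α, a coactivator that raises mitochondrial biogenesis. Its gene-body region chr5:51841049-51841299 read 4.13 to 14.7 CPM in HSC, 8 counts in all, and 22.5 to 59.7 CPM in MPP2, 92 counts. The region lies 273324 bp from the nearest listed start site of the gene and 274554 bp from the nearest gene end. Being beyond 50 kb, it had no assigned gene and is named by the gene that spans it. The groups did not overlap, and the ratio of pooled counts was 5.89 (95% exact interval 2.87 to 14.0, counting error only; edgeR adjusted p = 0.0622). MPP3 and MPP4 were also low, at 6.13 ± 1.78 (SD, n = 5) and 8.37 ± 6.34 CPM (SD, n = 6), and MPP2 exceeded their mean by 2.61 ± 0.37 on the log2 scale (edgeR adjusted p = 5.67e-06).

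Pde5a encodes the phosphodiesterase that breaks down cGMP and is present in platelets. A region outside the gene, 24677 bp from its start site at chr3:122704153-122704481, read 38.6, 8.25 and 4.96 CPM in WT and 29.4, 9.45 and 0 CPM in IκB– HSC. The MPP2 libraries ran from 40.7 to 77.4 CPM, above every HSC library, and the log2 fold change was 2.14 ± 0.45 (SE; edgeR adjusted p = 0.071). Against the mean of MPP3 and MPP4 it was 2.25 ± 0.38 (edgeR adjusted p = 7.36e-05). Itga2 encodes the α2 subunit of the collagen-binding integrin of platelets. Its gene-body region chr13:114915814-114916071 held 38.5 ± 21.0 CPM in HSC and 88.5 ± 13.6 in MPP2 (SD, n = 6 each), again without overlap, with a log2 fold change of 1.25 ± 0.32 (SE; edgeR adjusted p = 0.206; with gene-end share added as covariate 1.27, adjusted p = 0.00721). This region was called against MPP3 and MPP4, at 1.15 ± 0.25 (edgeR adjusted p = 0.00164). For Itga2, 2 other regions were not called in either comparison. Another gene-body region, chr13:114845792-114846262, differed by 0.52 from HSC and by -0.05 from MPP3 and MPP4 (edgeR adjusted p = 0.729 and 0.952). The promoter region, chr13:114931735-114932158, differed by 0.76 and 0.58 (edgeR adjusted p = 0.659 and 0.256).

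The one start site among these 12 belonged to Cst7, which encodes cystatin F, an inhibitor of lysosomal cysteine proteases. Its region chr2:150570087-150570570 read 34.7 to 66.1 CPM in HSC and 87.2 to 119 CPM in MPP2, without overlap (log2 fold change 1.12 ± 0.24, SE; edgeR adjusted p = 0.071). Panx1, which encodes a membrane channel for ATP, had a gene-body region at 78.0 ± 37.4 CPM in HSC against 155 ± 34.1 in MPP2 (SD, n = 6 each; edgeR adjusted p = 0.0622), and MPP3 and MPP4 lay at the MPP2 level, at 149 and 156 CPM.

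In the edgeR fit described no region was called lower in MPP2, and the smallest adjusted p on that side was 0.14 (367 at an unadjusted p under 0.05; DESeq2 and limma-voom also called 0 lower). Other edgeR fits called some: 2 lower with gene-end share added as covariate, namely those of Zc3h18 (adjusted p = 0.0244) and Oaz1 (adjusted p = 0.0287) described next, 1 lower without IκB– HSC replicate 3, 1 lower with both of these changes, 2 lower without IκB– HSC replicates 2 and 3, and 1 lower with WT recipients fitted alone. The 12 lower regions with the smallest p had log2 fold changes from -1.30 to -0.76, 8 of them overlapped a start site (52.9% of all regions tested did) and 1 had no overlap between groups. At the Zc3h18 promoter, of an RNA-processing factor, chr8:122376415-122376863 read 47.2 to 160 CPM in HSC and 15.6 to 59.7 CPM in MPP2 (log2 fold change -1.30 ± 0.31, SE; edgeR adjusted p = 0.14). At the promoter of Oaz1, the antizyme that restrains polyamine synthesis, the values were 195 ± 55.3 and 112 ± 20.9 CPM (SD, n = 6 each; edgeR adjusted p = 0.176).

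Runx1, a transcription factor needed for the formation of HSC and for megakaryocytes, has 2 start sites in the RefSeq promoter table, and both regions lay lower in MPP2 without passing the test. The one inside the gene, chr16:92697295-92697504, read 57.9, 53.6 and 74.4 CPM in WT and 51.4, 75.6 and 82.4 CPM in IκB– HSC. The MPP2 libraries ran from 23.3 to 46.9 CPM, below every HSC library (log2 fold change -1.03 ± 0.28, SE; edgeR adjusted p = 0.34). The distal one, chr16:92825917-92826191, held 53.3 ± 25.3 and 27.4 ± 12.9 CPM (SD, n = 6 each), with overlapping groups (edgeR adjusted p = 0.599). Another region, 3566 bp from the distal start site inside the gene, lay in HSC and MPP2 at 80.6 ± 32.3 and 75.7 ± 10.8 CPM (SD, n = 6 each), and MPP2 exceeded MPP3 and MPP4 there by 0.75 ± 0.19 on the log2 scale (edgeR adjusted p = 0.00722); it was chosen after its values were seen.

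The promoters of Pf4, Cst7 and both Runx1 start sites are shown because the regions over them carry the start-site results above and the platelet result below. Each is 300 bases of RefSeq sequence around the start site (GRCm38.p6, the assembly of mm10), 5′ to 3′ on the strand of the gene, with capitals marking the letters of any of 9 short motifs searched on both strands.
Pf4, chr5:90772185-90772484, plus strand: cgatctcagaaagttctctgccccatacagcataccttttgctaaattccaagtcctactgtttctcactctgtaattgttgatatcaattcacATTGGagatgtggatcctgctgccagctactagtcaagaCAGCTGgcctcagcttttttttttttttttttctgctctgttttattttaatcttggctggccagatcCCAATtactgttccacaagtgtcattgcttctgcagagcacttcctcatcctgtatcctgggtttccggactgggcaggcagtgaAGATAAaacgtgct
Cst7, chr2:150570165-150570464, plus strand: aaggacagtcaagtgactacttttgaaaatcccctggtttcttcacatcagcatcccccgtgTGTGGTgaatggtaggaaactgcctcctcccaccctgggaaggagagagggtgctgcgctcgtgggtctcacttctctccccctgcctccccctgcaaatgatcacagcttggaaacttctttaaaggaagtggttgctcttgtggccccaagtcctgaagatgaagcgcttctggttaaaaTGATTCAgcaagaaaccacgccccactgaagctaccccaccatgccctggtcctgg
Runx1 inside the gene, chr16:92697280-92697579, minus strand: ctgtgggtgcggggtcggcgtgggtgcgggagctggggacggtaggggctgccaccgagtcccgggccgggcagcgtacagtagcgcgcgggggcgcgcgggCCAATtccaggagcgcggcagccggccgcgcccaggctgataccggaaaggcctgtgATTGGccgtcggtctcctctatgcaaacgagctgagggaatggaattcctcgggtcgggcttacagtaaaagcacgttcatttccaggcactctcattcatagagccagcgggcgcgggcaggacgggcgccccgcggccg
Runx1 distal, chr16:92826025-92826324, minus strand: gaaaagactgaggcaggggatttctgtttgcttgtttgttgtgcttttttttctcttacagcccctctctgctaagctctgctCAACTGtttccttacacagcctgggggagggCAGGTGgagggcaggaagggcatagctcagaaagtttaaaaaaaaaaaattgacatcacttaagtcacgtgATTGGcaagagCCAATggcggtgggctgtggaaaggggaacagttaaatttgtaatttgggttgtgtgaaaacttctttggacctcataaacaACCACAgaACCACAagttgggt
The Pf4 promoter holds the GATA letters AGATAA or their complement, the distal Runx1 promoter holds RUNX letters (TGTGGT or its complement ACCACA), and the inner one holds none of the motifs but CCAAT. Of 5236 promoters whose start site lies in a tested region, 4.53% held AGATAA and 11.1% TGTGGT. Among the 84 with an unadjusted p under 0.05 on the higher side these shares were 8.33% and 9.52%, and among the 234 on the lower side 2.99% and 5.98%. The NRF1 letters GCATGCG stood in 14.1% of the 234, in 5.95% of the 84 and in 8.23% of all 5236. These are descriptions of letters in a window and no test was made.

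The positions of the higher and lower regions are given next, as a description with no test. Regions within 1 kb of a gene end made up 64.5% of those tested, 32.2% of the 382 with an unadjusted p under 0.05 on the higher side and 76.8% of the 367 on the lower side. Regions farther than 50 kb from any gene made up 4.99%, 16.8% and 1.36%. The gene-end share of whole libraries ran up to 73.8% in HSC and 67.8% in MPP2, and its part in this pattern was not tested; with that share as a covariate 34 regions were called, 32 of them higher.

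**Figure D4:**
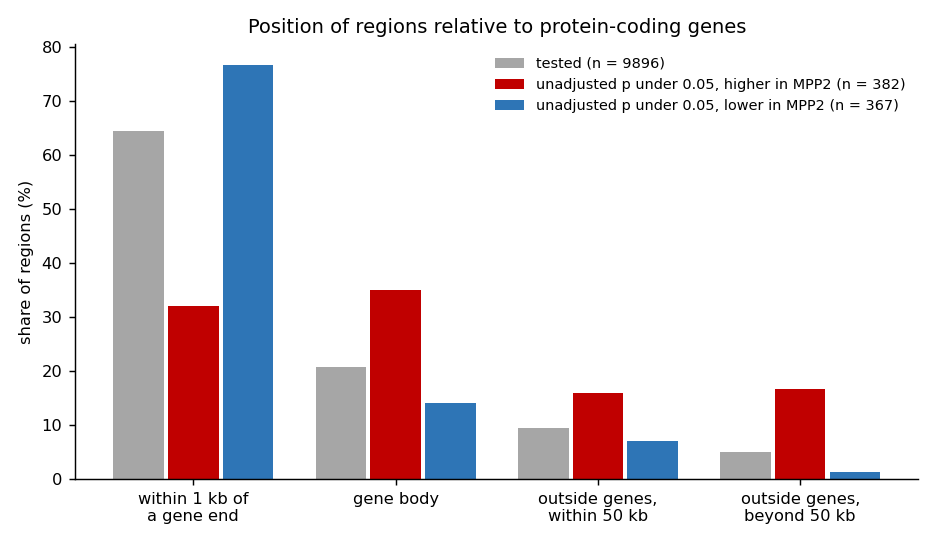
Share of regions in 4 position classes for the 9896 regions tested and for those with an unadjusted p under 0.05, 382 higher and 367 lower in MPP2. Of the higher regions 32.2% lie within 1 kb of a gene end and 35.1% in gene bodies, and of the lower regions 76.8% and 14.2%.

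The change from HSC to MPP2 was also examined within each recipient type. Within WT recipients 0 regions were called between MPP2 and HSC (0%; at an unadjusted p under 0.05, 163 higher, 1.65%, and 129 lower, 1.3%), within IκB– recipients 0 (0%; 334 higher, 3.38%, and 431 lower, 4.36%), and the edgeR interaction test, of whether the MPP2 over HSC fold differed between recipient types, called 0 (0%; 152 higher, 1.54%, and 159 lower, 1.61%; smallest adjusted p 1). The counts were also 0 with DESeq2 size factors. At an unadjusted p under 0.05, a uniform distribution of p would give 495 regions in each of these comparisons. There were 292 within WT recipients, 765 within IκB– recipients and 311 in the interaction test. With WT recipients fitted alone, an alternative chosen after seeing the data, 6 regions were called, 5 higher and 1 lower, and with IκB– recipients fitted alone 0. Without IκB– HSC replicate 1, 6 regions were called within IκB– recipients. A difference in that fold between recipient types was not detectable at this depth; WT and IκB– recipients were not themselves tested against each other.

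For the gene lists, each region took the protein-coding gene whose end lay closest, up to 50 kb away. No region of any of the 13 lists was called between MPP2 and HSC in the edgeR fit described, or with library totals in place of TMM. Over all regions tested 0.0303% were called higher and 0% lower, so a count of 0 says little about the lists. With gene-end share added as covariate 1 list region was called, the first Itga2 region above. Of the megakaryocyte and platelet list, 20 regions near 14 genes were tested: 12 were fitted higher in MPP2 and 8 lower, 2 had an unadjusted p under 0.05, both higher, where 3.86% of all regions did on the higher and 3.71% on the lower side, and the median log2 fold change was 0.12 against -0.02 over all regions. The lymphoid priming list had 7 higher and 3 lower (median 0.18) and the integrin and adhesion list 16 and 9 (median 0.12). With genes assigned only up to 10 kb away these became 3 and 3 (median 0.04) and 6 and 8 (median -0.03). The megakaryocyte and platelet list then had 6 higher and 5 lower (median 0.07). The erythroid list was split 10 to 10 with a median of 0.00. The HSC list had 10 higher and 11 lower (median -0.01), the heptad transcription factors 6 and 11 (median -0.13), the NF-κB pathway 8 and 17 (median -0.18), the immediate-early genes 13 and 28 (median -0.09) and the cell cycle genes 17 and 22 (median -0.07). The granulocyte and monocyte list had 5 higher and 6 lower (median -0.04), the interferon list 12 and 14 (median -0.01), the iron and heme list 7 and 13 (median -0.10) and the non-blood and mature cell list 1 and 2 (median -0.78). In that last list the 2 lower regions both lay near Ly6c2, beyond 10 kb from a gene end. With genes assigned up to 10 kb away only 1 region was tested, near Cdh5, and it was higher (0.81).

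MPP3 and MPP4 place these values. In a fit of all 8 groups, 897 of 13364 regions were called higher in MPP2 than in the mean of MPP3 and MPP4 (6.71%) and 399 lower (2.99%), while the same fit called 4 regions between MPP2 and HSC, all higher (0.0299%). HSC differed from the mean of MPP3 and MPP4 at 230 higher (1.72%) and 161 lower regions (1.2%). The counts for MPP2 were 488 higher and 181 lower without IκB– MPP2 replicate 1, 502 and 205 without WT MPP2 replicate 1, and 605 and 201 without WT MPP2 replicate 2. These comparisons share libraries, and HSC libraries are shallower, so the counts are set side by side and not tested against each other.

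Of 32 megakaryocyte and platelet regions in that fit, 13 were called higher in MPP2 than in MPP3 and MPP4 and 0 lower, with a median log2 fold change of 0.38 against -0.01 over all regions and 6.71% called higher among them. Leaving out each sample of these 3 subsets in turn gave 10 to 13 called higher and 0 lower, except 1 lower without IκB– MPP3 replicate 1; with all 24 libraries kept apart 1 was called lower. For HSC against the same mean, 5 were called higher and 0 lower, with a median of 0.20 against 0.03 and with 1.72% of all regions called higher and 1.2% lower. Both medians depended on the 50 kb window. With genes assigned only up to 10 kb away, 18 regions remained. Of these 6 were called higher in MPP2 than in MPP3 and MPP4 and 0 lower (median 4e-04). For HSC 2 were called higher and 0 lower (median 0.02). Of the regions named from here on, those of Rab27b, Slc14a1, Bcl11a, Notch1, Ikzf1, Cdk6, Ccnd2, Ccne1, Irf2, Bcl3 and Etv6, and the Zfpm1 region with the smaller change, were chosen after their values were seen. Cavin2, which encodes a coat protein of caveolae found in platelets, had a gene-body region (chr1:51300260-51300616) at 106 ± 60.5 CPM in HSC and 135 ± 26.1 in MPP2 (SD, n = 6 each). MPP3 had 9.17 ± 7.56 (SD, n = 5) and MPP4 32.7 ± 17.6 CPM (SD, n = 6), and MPP2 exceeded their mean by 3.08 ± 0.29 on the log2 scale (edgeR adjusted p = 4.87e-09), against 0.41 over HSC (adjusted p = 0.763). Its HSC libraries spread from 27.5 to 176 CPM, with the lowest value in the replicate 3 from IκB– recipients that stood apart.

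The promoter of Pf4, the platelet chemokine PF4, held 37.2 ± 19.3 CPM in HSC and 53.4 ± 19.8 in MPP2 (SD, n = 6 each), and 22.1 and 19.5 CPM in MPP3 and MPP4. MPP2 exceeded the latter by 1.36 ± 0.30 on the log2 scale (edgeR adjusted p = 0.00193) and HSC by 0.65 (adjusted p = 0.69). Zfpm1 encodes FOG-1, the partner of GATA1 in megakaryocytes and erythroid cells, and 2 of its gene-body regions were higher in MPP2 than in MPP3 and MPP4, by 1.01 ± 0.26 and 1.84 ± 0.30 (edgeR adjusted p = 0.00865 and 4.62e-05). Regions of Rab27b, a GTPase of platelet granule release, and Slc14a1, a urea transporter of red cells, followed with 2.04 ± 0.35 and 1.59 ± 0.25 (adjusted p = 0.000105 and 2.18e-05). The HSC and MPP2 means were 54.5 and 55.5 CPM at Rab27b and 49.1 and 60.2 CPM at Slc14a1, and neither region was called between them. Regions of Itga2b, Vwf and Plek were not called against MPP3 and MPP4. MPP2 differed there by -0.12, 0.42 and 0.23 on the log2 scale (edgeR adjusted p = 0.847, 0.29 and 0.528). The Itga2b region read 35.6 CPM in MPP2, against 51.1 in HSC, 39.6 in MPP3 and 41.2 in MPP4.

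Of 23 erythroid regions, 5 were called higher in MPP2 than in MPP3 and MPP4 and 1 lower, where 6.71% of all regions were called higher and 2.99% lower. Car2, a carbonic anhydrase of red cells, read 23.9 and 41.7 CPM in HSC and MPP2, against 10.9 and 22.4 CPM in MPP3 and MPP4 (1.45 ± 0.34 over MPP3 and MPP4; adjusted p = 0.00348). Bcl11a, a repressor of embryonic globins that also acts in lymphoid cells, had 1 region called higher (1.17) and 1 lower (-1.48), so its regions did not move together.

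Regions of other lineages were also compared with MPP3 and MPP4, and their counts are to be read against the 6.71% of all regions called higher and the 2.99% called lower. Of 25 granulocyte and monocyte regions 1 was called higher and 3 lower, among them the promoter of Cebpa, the factor that opens the granulocyte program: 40.2 ± 13.6 CPM in HSC and 44.1 ± 12.8 in MPP2 (SD, n = 6 each) against 103 ± 18.7 in MPP3 (SD, n = 5) and 93.4 ± 21.0 in MPP4 (SD, n = 6). MPP2 differed from their mean by -1.09 ± 0.20 on the log2 scale (edgeR adjusted p = 0.000166) and from HSC by 0.11 (adjusted p = 0.954). Of 21 lymphoid priming regions 2, both of Mef2c, were called higher and 3, of Notch1 and Ikzf1, lower. Of 49 cell cycle regions 0 were called higher and 3 lower, near Cdk6 (-1.48), Ccnd2 (-1.77) and Ccne1 (-0.62).

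**Figure D5:**
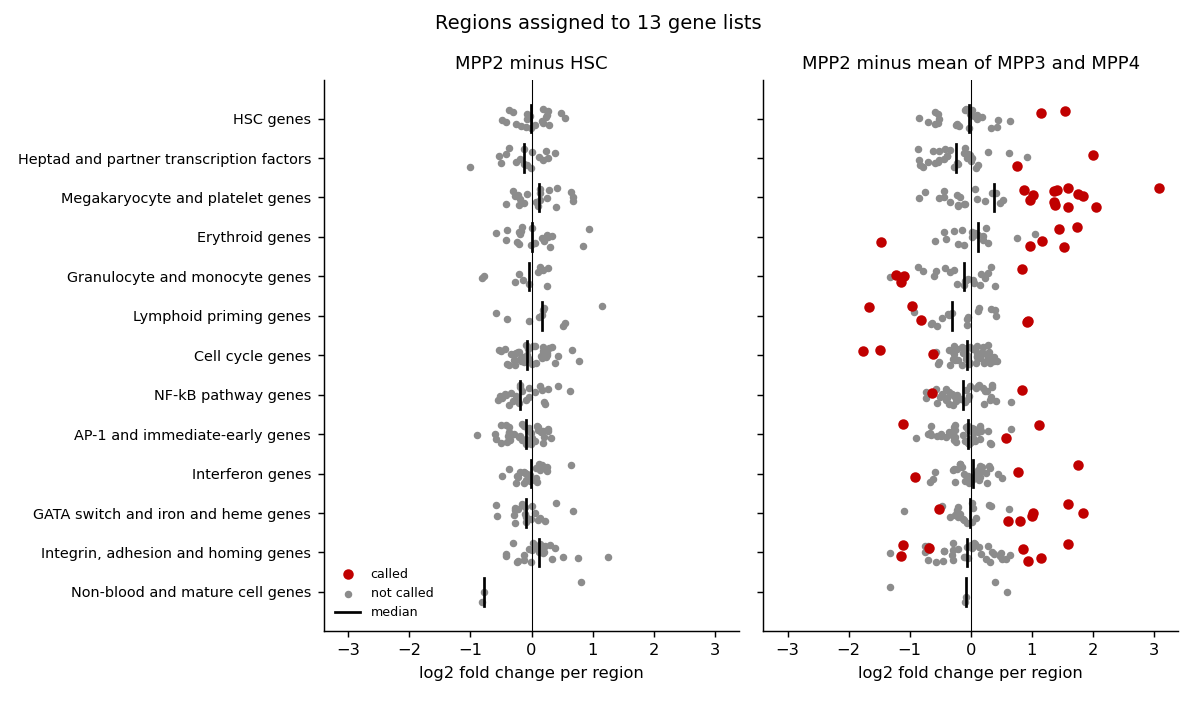
Log2 fold change of each region assigned to 13 gene lists, for MPP2 minus HSC (left) and MPP2 minus the mean of MPP3 and MPP4 (right); red points were called and black bars mark the list medians. No point on the left is called, where 0.0303% of all regions tested were called higher and 0% lower. On the right 13 of the 32 megakaryocyte and platelet regions are called, all higher, where 6.71% of all regions were called higher.

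For interferon and NF-κB genes the same shares over all regions apply, 6.71% higher and 2.99% lower. Of 34 interferon regions 2 were called higher in MPP2 than in MPP3 and MPP4, among them 1 near Irf2 (0.77 ± 0.24; edgeR adjusted p = 0.0288), and 1 lower, near Irf1 (-0.91 ± 0.21; adjusted p = 0.00299). Of 38 NF-κB regions 1 was called higher, in Tnfrsf1b, and 1 lower, in Bcl3. Etv6, a transcription factor that HSC need to persist in adult marrow, had a gene-body region (chr6:134226787-134227142) at 44.6 ± 12.2 CPM in HSC and 54.5 ± 17.6 in MPP2 (SD, n = 6 each) against 10.8 and 23.4 CPM in MPP3 and MPP4 (edgeR adjusted p = 5.84e-06 over the latter). HSC marker genes set in advance did not share this pattern. At regions of Hlf, Mecom, Fgd5, Meis1 and Vwf, HSC differed from the mean of MPP3 and MPP4 by -0.51, -0.26, -0.48, 0.05 and 0.49 on the log2 scale. None of these was called (edgeR adjusted p = 0.376, 0.673, 0.545, 0.953 and 0.378), and none was called for MPP2 against that mean.

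Slamf1 encodes CD150, a surface protein used in the gates. Its gene-body region chr1:171773271-171773506 read 23.8 and 20.2 CPM in HSC and MPP2, against 3.17 and 12.9 CPM in MPP3 and MPP4. These means pool recipient types with different levels. HSC and MPP2 had 36.6 and 30.0 CPM in WT and 11.1 and 10.3 CPM in IκB– recipients (n = 3 each), from 1 to 14 counts per library. This was seen in the data and not tested, and how many other regions differ as much between recipient types was not counted. The region was too low for the test between MPP2 and HSC. Against MPP3 and MPP4 the log2 fold change was 1.71 ± 0.49 for MPP2 (edgeR adjusted p = 0.0197) and 1.90 for HSC (adjusted p = 0.0703). Accessibility is no measure of surface protein, so this does not check the gate. Cd48, Ly6a, Gata1, Hoxb5, Mpo, Ighm and Il7r had no assigned region. Among markers of non-blood and mature blood cells, 4 of 18 genes had a region and 14 had none. Their summed level was 307 to 1748 CPM in HSC and 305 to 982 CPM in MPP2, most of it in 2 regions near Ly6c2, a member of a gene family of near copies where reads may be shared, and 0 of them were called.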

How the data were processed

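The members of the comparison, the gene lists and the tests were chosen with earlier results of these data known. The authors deposited raw counts per region for 13910 regions and 24 libraries, and the 5 mitochondrial regions were dropped here. Per the submitters' processing notes, the tools included Bowtie2, SAMtools, Picard, MACS2 2.1.0 and deepTools and the build was mm10; their settings, the transposase offset and the counting tool are not given in the sources used here. How duplicates and the offset were treated can change counts in a way that could not be examined. Total nuclear counts differed up to 6.29-fold among the 12 libraries compared, and this limits small differences at low regions.

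Counts were tested with edgeR 4.0.16 in R 4.3.3 (TMM, filterByExpr, robust quasi-likelihood fit, recipient type as covariate, 9 residual degrees of freedom, Benjamini-Hochberg over all regions tested). Separate fits of 4 and of 8 group means gave the comparisons by recipient type and with MPP3 and MPP4. WT MPP3 replicates 2 and 3 differed by less than sampling noise (13121 regions compared, chi-square 0.995 times its degrees of freedom, p = 0.67) and were counted as 1 sample. Positions come from the RefSeq gene and promoter tables of GRCm38.p6; 12218 regions had an assigned gene. The regions named are the 12 with the smallest p in each direction, up to 4 per list by p, the region nearest each of a set of defining genes, and those said to be chosen after their values were seen. Alternatives used DESeq2 1.42.0 and limma 3.58.1, other scalings and filters, covariates, thinning, leaving out libraries and a window of 10 kb for assigning genes. No sequencing batch is given by the labels. Results for a few genes are not reported here.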

Additional observations from a re-analysis of the deposited data

How the results depend on the processing

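The count of 3 calls between MPP2 and HSC became 6 with total nuclear counts as library size, 5 with DESeq2, 1 with limma-voom, 34 once each library's gene-end share entered as covariate, 0 with log2 depth as a covariate and 0 after thinning all libraries to the smallest total, where 4782 regions were tested. Leaving out each library in turn gave 0 to 9. Alternatives chosen after seeing the data gave 6 calls in WT recipients fitted alone, 0 in IκB– recipients fitted alone, 5 without IκB– HSC replicates 2 and 3 (3 higher, 2 lower), and 17 when that covariate was used and IκB– HSC replicate 3 left out. The cause of these shifts was not tested, beyond the fewer regions and counts that thinning leaves. The count stayed between 2 and 4 with DESeq2 size factors, cyclic loess, no filter, a minimum mean of 20 counts, all 8 groups fitted, 4 group means, no recipient covariate and mitochondrial regions kept. Replicate numbers did not pair the samples by the rule used (same-number correlations 0.0634 to 0.263, 1 of 6 under 0.1), although each HSC sample correlated best with the MPP2 sample of its own number; with a replicate block within recipient type 16 regions were called, 14 higher and 2 lower, and with a block by number 22, 20 higher and 2 lower. The first block called 8 of the 9 higher regions described in the report as just missing the threshold (Panx1, Ppargc1a, Klf12, Pde5a, Cst7, 2010109A12Rik, Ppfia1 and Pdzph1) and the second all 9 and Itga2, and the 2 lower regions were those of Zc3h18 and Oaz1 in both. The block called 1 region in IκB– recipients; against MPP3 and MPP4, with all 24 libraries kept apart, it called 2146 where the same fit with no block called 1381, and 13 megakaryocyte and platelet regions were then higher and 2 lower. Within IκB– recipients leaving out a library gave 0 to 6 calls, and against MPP3 and MPP4 669 to 1411, where leaving out MPP3 and MPP4 samples was added after seeing the data. The depth difference ran from 0.526 to 1.12 and the gene-end share difference from -1.67 to 1.13 percentage points, reversed at 0.148 without WT HSC replicate 3 and at 1.13 without IκB– HSC replicate 3. The folds of the 24 regions with the smallest p and of the first Itga2 region kept their direction in every fit that tested them. They were chosen by p in the main fit and the fits share libraries, so nothing is read from this. The correction for GC content was not run, since it needs a genome sequence. Depth limits the regions with few counts: 4009 nuclear regions were not tested between MPP2 and HSC.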
